A study of Arabidopsis thaliana with 6 samples.

Results

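G1/S control and DNA replication genes are described here in root tips of ore15-2 and wild-type Col seedlings of Arabidopsis thaliana. The 42 genes were listed by what they are known to do, but the list was made with earlier results of these data known. They comprise 6 D-type cyclins, 6 genes of the E2F, DP and RBR group, 9 genes that load replication origins, 8 MCM and CDC45 genes, 8 genes of the replication fork, 3 ribonucleotide reductase subunits and 2 subunits of chromatin assembly factor 1 (CAF-1). All 42 were among the 18734 genes of the count table, and all 42 were among the 18726 genes that passed the filter on low counts and were tested.

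D-type cyclins are the regulatory subunits of the kinases that phosphorylate the retinoblastoma protein, which plants encode as RBR1. Unphosphorylated RBR1 holds back E2F/DP transcription factors, and its phosphorylation releases them to switch on genes for S phase. Before S phase the origin recognition complex (ORC), CDC6 and CDT1 load the ring of MCM2 to MCM7 on DNA, and CDC45 and MCM10 help to turn that ring into the moving helicase. DNA polymerases, the sliding clamp PCNA, its loader RFC and DNA ligase then copy both strands, ribonucleotide reductase supplies the deoxynucleotides, and CAF-1 packs the new DNA into nucleosomes. In the root these genes are used by the dividing cells of the meristem.

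The ore15-2 seedlings have the ORE15 gene, which encodes a PLATZ transcription factor, interrupted by T-DNA in the Columbia background. The Col seedlings are the wild type of the same background. Both groups were sampled 5 days after planting as 0.5 cm tips of primary roots, with 3 RNA-seq libraries per genotype, in a study of how ORE15 affects the size of the root meristem. The mutant is represented by 1 insertion line. The labels give 2 seedlings per genotype beside 3 libraries and name no separate cultures or pools. The p-values here therefore describe only how these libraries varied, which may be technical. The labels call the cells meristem stem cells, but markers of root hairs, xylem, phloem and endodermis were present in every library, so the tips hold differentiated tissue as well.

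Read counts of ORE15, AT1G31040 on chromosome 1 of TAIR10.1 (11069510 to 11072564, minus strand), were 0, 0 and 1 in ore15-2 replicates 1 to 3, and 13, 12 and 8 in Col replicates 1 to 3. The gene was too low to be tested, and its identity with ORE15 is background knowledge because the reference gives it no symbol. Total counts ranged from 6396903 to 16503138 in ore15-2 and from 17433440 to 20333352 in Col. The ore15-2 libraries did not form a tight group. The mitochondrial share of counts was 2.91%, 3.20% and 0.328% in ore15-2 replicates 1 to 3, against 0.183% to 0.250% in Col. On the first principal component, with 68.8% of the variance, ore15-2 replicates 1, 2 and 3 lay at 33.5, 67.3 and -4.08, and the Col libraries between -36.7 and -27.8. For each role the direction of the changes is therefore also given without ore15-2 replicate 3, and with replicate 3 as the sole ore15-2 library.

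The DNA sequence that E2F/DP factors bind is known as the E2F site, and it marks many S-phase genes. Promoter windows of 250 bases before to 50 bases after each annotated gene start were read from the RefSeq annotation of TAIR10.1 and searched on both strands for TTTCCCGC, TTTCGCGC, TTTGCCGC and TTTGGCGC. At least 1 of these 8-letter sequences was present in 16 of 42 windows (38.1%), against 1.86% of the 18398 tested protein-coding genes. The 250 bases before the start are shown for the 2 members with 2 E2F sites there, the most of any member, to let the sites be seen in context. They belong to FAS1, a CAF-1 subunit (chr1:24324092-24324341, minus strand), and POLA1, the catalytic subunit of the primase-carrying DNA polymerase alpha (chr5:26776703-26776952, plus strand). Each is written 5′ to 3′ on the gene's own strand and ends at the base before the start, and capitals mark the E2F sites.
FAS1: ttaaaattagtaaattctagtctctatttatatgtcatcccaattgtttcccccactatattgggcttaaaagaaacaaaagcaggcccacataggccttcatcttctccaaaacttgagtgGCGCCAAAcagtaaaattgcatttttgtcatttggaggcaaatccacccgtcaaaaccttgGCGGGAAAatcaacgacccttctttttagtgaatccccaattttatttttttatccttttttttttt
POLA1: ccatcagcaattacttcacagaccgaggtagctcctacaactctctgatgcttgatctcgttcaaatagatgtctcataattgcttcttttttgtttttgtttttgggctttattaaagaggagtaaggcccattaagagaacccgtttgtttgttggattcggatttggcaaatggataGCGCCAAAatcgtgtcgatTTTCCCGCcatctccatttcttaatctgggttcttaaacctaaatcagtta

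FAS1 has 2 sites, both reading on the opposite strand, one TTTGGCGC and one TTTCCCGC. POLA1 has a TTTGGCGC on the opposite strand and a TTTCCCGC on its own strand. The 42 windows held 18 matches in all, none overlapping another E2F match. Of these, 15 began before the gene start, 12 of them within the last 100 bases, and the farthest began 170 bases before the start, in MCM3. The 3 matches after the start were in ORC4, POLA2 and RNR1. TTTCCCGC was the commonest form, in 12 members (28.6%), against 0.837% of tested protein-coding genes. TTTGGCGC was in 5 members (11.9%, against 0.489%), TTTCGCGC in 1 member (2.38%, against 0.239%) and TTTGCCGC in 0 members (against 0.353%).

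**Figure D1:**
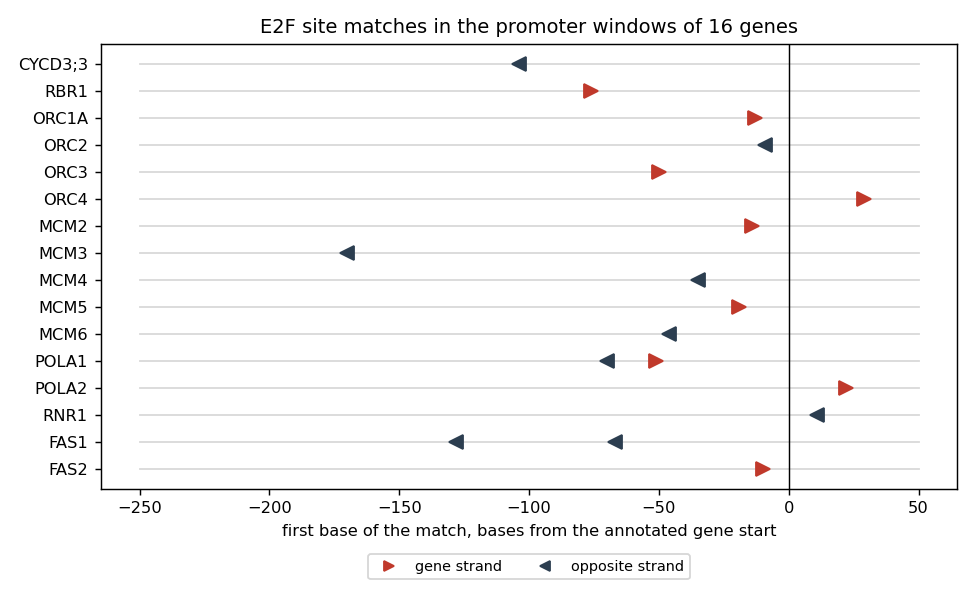
Positions of E2F site matches in the 16 promoter windows that held one. The horizontal axis is the distance in bases of the match's first base, read along the gene strand, from the annotated gene start at 0; rightward red triangles are matches on the gene strand and leftward dark triangles matches on the opposite strand. Of 18 matches, 12 lie in the 100 bases before the start.

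The sites were unevenly spread over the roles. In the MCM and CDC45 group MCM2, MCM3, MCM4, MCM5 and MCM6 had a site, 5 of 8 members. In the origin group ORC1A, ORC2, ORC3 and ORC4 had a site, 4 of 9 members. Both CAF-1 subunits had one, as did POLA1 and POLA2 among 8 fork genes, RNR1 among 3 reductase genes, RBR1 among 6 genes of the E2F group and CYCD3;3 among 6 D-type cyclins. Site II elements, TGGGCC or TGGGCT on either strand, which are found upstream of many growth genes, were present in 22 of 42 windows (52.4%), against 25.9% of tested protein-coding genes. TGGGCC was in 19 members (45.2%, against 19.2%) and TGGGCT in 12 (28.6%, against 16.8%). A match is a run of letters and does not show that a factor binds there.

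No member passed the test between ore15-2 and Col. The smallest adjusted p among the 42 members was 0.0945, for MCM3, in edgeR's quasi-likelihood test with adjustment over the 18726 tested genes. Thus 0 of 42 passed the threshold of 0.05, against 9.9% of all tested genes (6.47% higher and 3.43% lower in ore15-2). At an unadjusted p under 0.05, 6 members were past the line, all lower in ore15-2 (14.3% of the 42), against 26.9% of all tested genes (10.8% lower). They were ORC3, ORC5, MCM3, MCM5, MCM10 and LIG1. DESeq2 called 1 member, MCM3, lower in ore15-2 with an adjusted p of 0.0449, against 13.5% of all genes (8.89% higher and 4.56% lower), and limma-voom called 0. Over all alternatives the adjusted p of MCM3 ran from 0.0166 to 0.263. In bulk tissue fewer cells of a type and less RNA per cell cannot be told apart, so a lower value of any of these genes may stand for either.

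The 3 libraries of ore15-2 and the 3 of Col did not overlap for 13 members (31%), each of them lower in ore15-2, against 34.5% of all tested genes (16.3% lower). These were CYCD4;1, E2FB, E2FC, DPB, ORC3, ORC4, ORC5, MCM3, MCM5, MCM6, MCM10, POLA1 and LIG1. The fitted log2 change was below 0 in 34 of 42 members (81%), against 50.1% of all tested genes. Without ore15-2 replicate 3 it was below 0 in 28 members, and with replicate 3 as the sole ore15-2 library in 34. Its median was -0.14 over the members and -0.000491 over all tested genes. The members ranged from -0.56 in ORC3 to 0.37 in TSO2, and the middle of their distribution, from the lower to the upper quartile, ran from -0.26 to -0.04, against -0.21 to 0.24 over all tested genes.

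The 95% intervals, like the p-values, describe only how these libraries varied and do not bound a difference between the genotypes. The 95% interval of the change lay within 2-fold in either direction for 39 of 42 members (92.9%), against 82.3% of all tested genes, and within 1.5-fold for 23. The 3 exceptions at 2-fold were ORC3, MCM6 and MCM10, whose intervals reached down to -1.001, -1.08 and -1.002 on the log2 scale. Summed over the 42 genes, transcript levels were 984, 961 and 846 CPM (read counts scaled to library size) in ore15-2 replicates 1 to 3, and 976, 954 and 933 CPM in Col. The sum of ore15-2 replicate 1 lay above the Col range, that of replicate 2 inside it and that of replicate 3 below it.

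**Figure D2:**
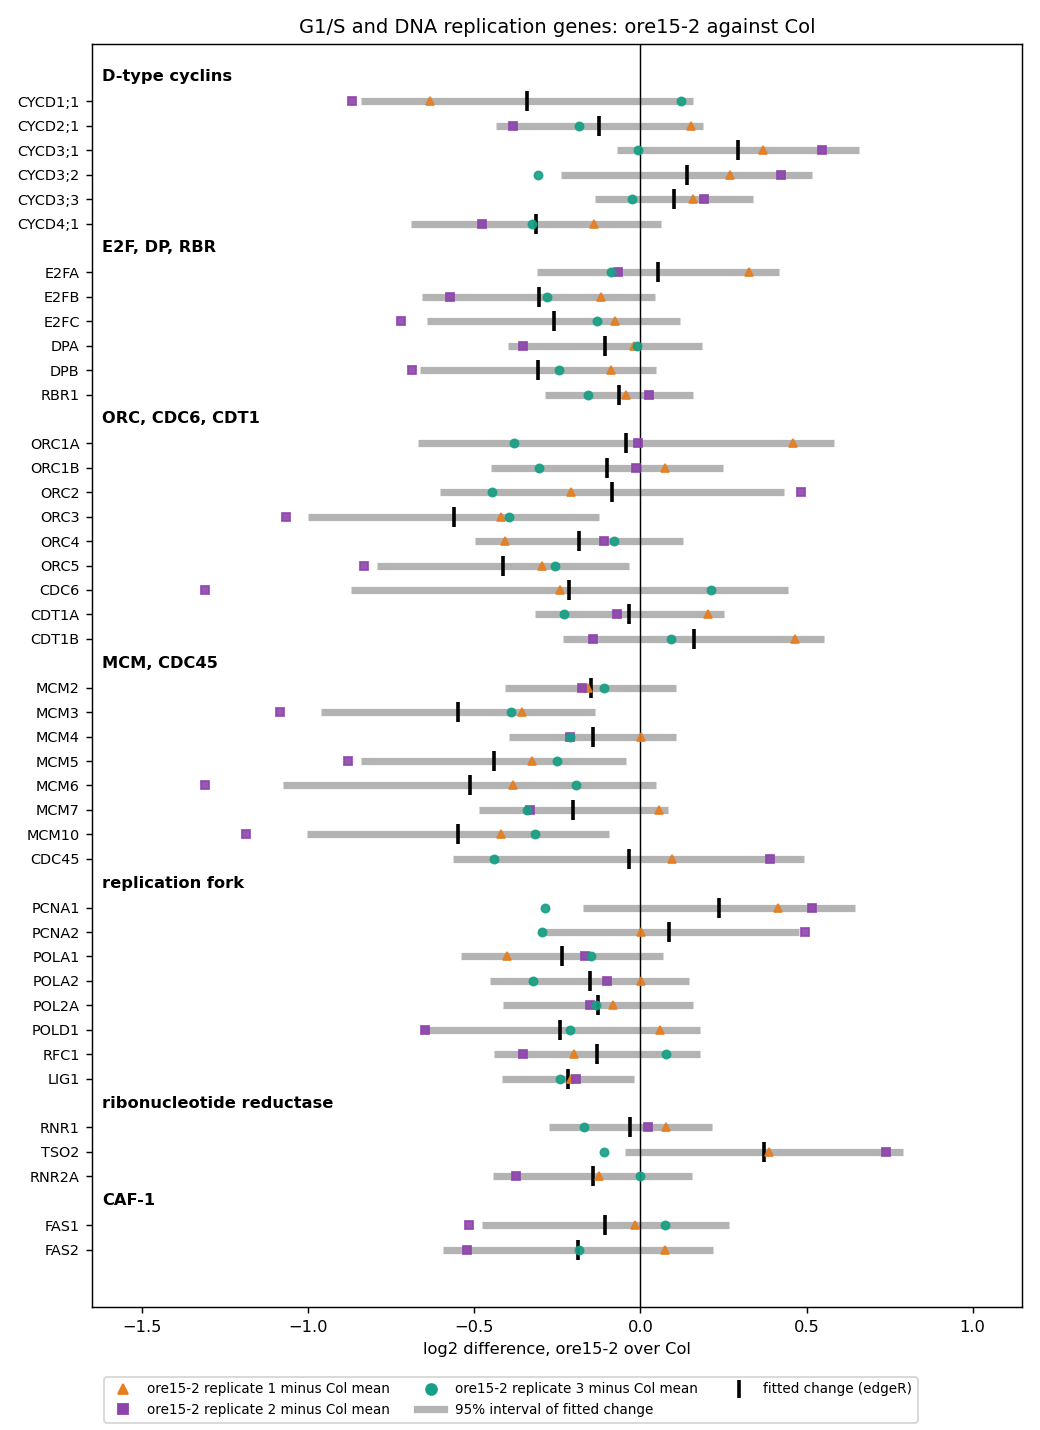
Change of each of the 42 genes, by role. The horizontal axis is the log2 difference of ore15-2 over Col; black ticks are the fitted changes, grey bars their 95% intervals, and coloured symbols the 3 ore15-2 libraries, each less the mean of the Col libraries. No adjusted p is under 0.05, and 34 of 42 ticks lie left of 0. In several members the symbol of replicate 3 lies on the other side of 0 from those of replicates 1 and 2. CYCD1;1, CYCD3;2, CDC6, CDC45, PCNA1 and TSO2 are among them.

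D-type cyclins had no common direction. None of the 6 had an unadjusted p under 0.05, 3 fitted changes lay above 0 and 3 below, and the median was -0.01 on the log2 scale. The count below 0 was also 3 without ore15-2 replicate 3, and it was 4 with replicate 3 alone. CYCD3;2, one of the CYCD3 cyclins that keep cells dividing, had the highest level per length, 38.2 ± 5.65 RPKM in ore15-2 and 40.5 ± 0.931 RPKM in Col (SD, n = 3 each). Its CPM values were 49.1, 54.7 and 32.9 in ore15-2 and 39.4, 42.05 and 40.8 in Col, with a log2 change of 0.14 (SE 0.17, adjusted p = 0.617 in edgeR's quasi-likelihood test). Replicates 1 and 2 of ore15-2 were above every Col library and replicate 3 was below every one. CYCD4;1, a D-type cyclin known for a part in lateral root formation, had the smallest p of the group. It had 5.82, 4.57 and 5.09 CPM in ore15-2 and 7.05, 6.27 and 5.97 CPM in Col, a log2 change of -0.31 (SE 0.17, adjusted p = 0.260). All its ore15-2 values were below the Col values.

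A pair of D-type cyclins was picked out after their values were seen, because their ore15-2 libraries differed among themselves. CYCD1;1 had 14.1, 11.9 and 23.8 CPM in ore15-2, against 20.3, 21.9 and 23.6 CPM in Col. CYCD3;1, which is induced by cytokinin, had 17.9, 20.3 and 13.8 CPM in ore15-2, against 13.5, 14.8 and 13.3 CPM in Col. In both genes ore15-2 replicates 1 and 2 stood away from Col, in opposite directions, while replicate 3 lay close to the Col values. The log2 changes were -0.34 for CYCD1;1 (adjusted p = 0.351) and 0.29 for CYCD3;1 (adjusted p = 0.275). CYCD2;1 and CYCD3;3 had log2 changes of -0.12 and 0.10. The coding sequences of CYCD3;2 and CYCD3;3 are 82.2% identical, with no identical run longer than 24 bases.

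In the E2F, DP and RBR group 5 of 6 fitted changes lay below 0, with a median of -0.18 on the log2 scale and none at an unadjusted p under 0.05. The count below 0 was also 5 without ore15-2 replicate 3 and with replicate 3 alone. E2FB, an activating E2F, had the smallest p. It had 9.05, 6.56 and 8.06 CPM in ore15-2, and 10.01, 9.99 and 9.51 CPM in Col, a log2 change of -0.31 (SE 0.16, adjusted p = 0.238 in edgeR's quasi-likelihood test). The ore15-2 values were all below the Col values. DPA, a partner that E2F proteins need to bind DNA, had the highest level per length of the 5 members with an RPKM value, 18.8 ± 4.68 RPKM in ore15-2 and 23.6 ± 0.968 RPKM in Col (SD, n = 3 each). Its CPM values were 18.6, 14.7 and 18.7 in ore15-2 and 19.4, 18.9 and 18.2 in Col, so the groups overlapped and only ore15-2 replicate 2 stood apart.

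RBR1, the retinoblastoma protein itself, differed little. It had 33.9, 35.6 and 31.3 CPM in ore15-2 and 35.0, 36.7 and 33.3 CPM in Col, a log2 change of -0.07 with a 95% interval of -0.29 to 0.16. The groups overlapped. The second E2F partner, DPB, had a log2 change of -0.31 (adjusted p = 0.242), and E2FC, an E2F that represses its targets, had -0.26 (adjusted p = 0.349). Both had no overlap between the groups. E2FA, the other activating E2F, was the 1 member of the group above 0, at 0.05.

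The genes that load origins had 8 of 9 fitted changes below 0 and a median of -0.10 on the log2 scale, and 2 of them, ORC3 and ORC5, had an unadjusted p under 0.05. Without ore15-2 replicate 3 the count below 0 was 4 of 9 and the median 0.00591, and with replicate 3 alone they were 7 of 9 and -0.25. ORC3 (AT5G16690, TAIR10.1 chromosome 5, 5474366 to 5480067, plus strand), a subunit of the origin recognition complex, had the lowest fitted change of the 42. It had 6.30, 3.98 and 6.40 CPM in ore15-2 and 9.59, 8.04 and 7.88 CPM in Col. The log2 change was -0.56 (SE 0.20, 95% interval -1.001 to -0.12, unadjusted p = 0.0175, adjusted p = 0.104 in edgeR's quasi-likelihood test). Each ore15-2 library was below each Col library, and replicate 2 was the lowest. ORC5 (AT4G29910, TAIR10.1 chromosome 4, 14627885 to 14630804, minus strand), another subunit of the complex, had 9.85, 6.76 and 10.1 CPM in ore15-2 and 11.6, 12.5 and 12.4 CPM in Col. Its log2 change was -0.41 (SE 0.17, adjusted p = 0.153), again with no overlap and with replicate 2 lowest.

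CDT1A, which brings the MCM ring to origins, had the highest level per length among the loading genes, 14.8 ± 2.59 RPKM in ore15-2 and 17.5 ± 0.775 RPKM in Col (SD, n = 3 each). Its CPM values were 31.5, 26.0 and 23.3 in ore15-2 and 28.3, 26.5 and 27.2 in Col, with replicate 1 of ore15-2 above and replicates 2 and 3 below all Col libraries. Its log2 change was -0.03 (adjusted p = 0.884). The lowest level per length of the whole set was that of ORC1A, the largest subunit of the origin complex in one of its 2 copies, at 0.890 RPKM in ore15-2 and 1.00 RPKM in Col. ORC1A and ORC1B share 92.2% of their coding sequence, with an identical run of 71 bases, so some reads may not tell them apart. Their log2 changes were -0.04 and -0.10. Without ore15-2 replicate 3 they were 0.24 and 0.00591, and with replicate 3 alone -0.40 and -0.30. CDC6, the ATPase that acts with CDT1, had the largest standard error of the members, 0.29 on the log2 scale. It had 5.98, 2.78 and 8.23 CPM in ore15-2 and 8.56, 6.72 and 6.21 CPM in Col. These values rest on 37, 14 and 144 reads of CDC6 in ore15-2 and 165, 148 and 130 in Col. Its log2 change was -0.21, and it was -0.69 without ore15-2 replicate 3 (adjusted p = 0.0865) and 0.22 with replicate 3 alone (adjusted p = 0.526). ORC2, ORC4 and CDT1B had log2 changes of -0.09, -0.19 and 0.16. That of ORC2 was 0.12 without ore15-2 replicate 3 and -0.45 with replicate 3 alone.

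The MCM and CDC45 genes were the group with the lowest median, -0.32 on the log2 scale, and all 8 fitted changes lay below 0. Without ore15-2 replicate 3 the count below 0 was 7, all but CDC45, with a median of -0.40, and with replicate 3 alone it was 8, with a median of -0.28. Unadjusted p was under 0.05 for 3 of 8, MCM3, MCM5 and MCM10. MCM3 (AT5G46280, TAIR10.1 chromosome 5, 18769649 to 18773706, minus strand) had 12.9, 7.75 and 12.6 CPM in ore15-2 and 17.6, 15.3 and 16.9 CPM in Col. The log2 change was -0.55 (SE 0.18, 95% interval -0.96 to -0.14, unadjusted p = 0.0146, adjusted p = 0.0945 in edgeR's quasi-likelihood test). MCM5 (AT2G07690, TAIR10.1 chromosome 2, 3522984 to 3527500, minus strand) had 15.8, 10.7 and 16.7 CPM in ore15-2 and 23.1, 18.3 and 18.6 CPM in Col, a log2 change of -0.44 (SE 0.18, adjusted p = 0.148). In both subunits of the helicase ring every ore15-2 library was below every Col library.

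MCM10 (AT2G20980, TAIR10.1 chromosome 2, 9011344 to 9013963, minus strand), which is not part of the ring but helps to start it, had 8.88, 5.17 and 9.55 CPM in ore15-2 and 12.5, 12.2 and 11.1 CPM in Col. Its log2 change was -0.55 (SE 0.20, adjusted p = 0.121), with no overlap. MCM6, a ring subunit named after its values were seen, had 11.5, 5.96 and 13.1 CPM in ore15-2 and 18.5, 13.4 and 13.6 CPM in Col, a log2 change of -0.51 (SE 0.25, adjusted p = 0.220). In MCM3, MCM5, MCM6 and MCM10 alike replicate 2 of ore15-2 had the lowest value, and replicates 1 and 3 lay nearer to Col. These 3 ore15-2 libraries are set against the same Col mean, so their deviations are not separate comparisons.

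**Figure D3:**
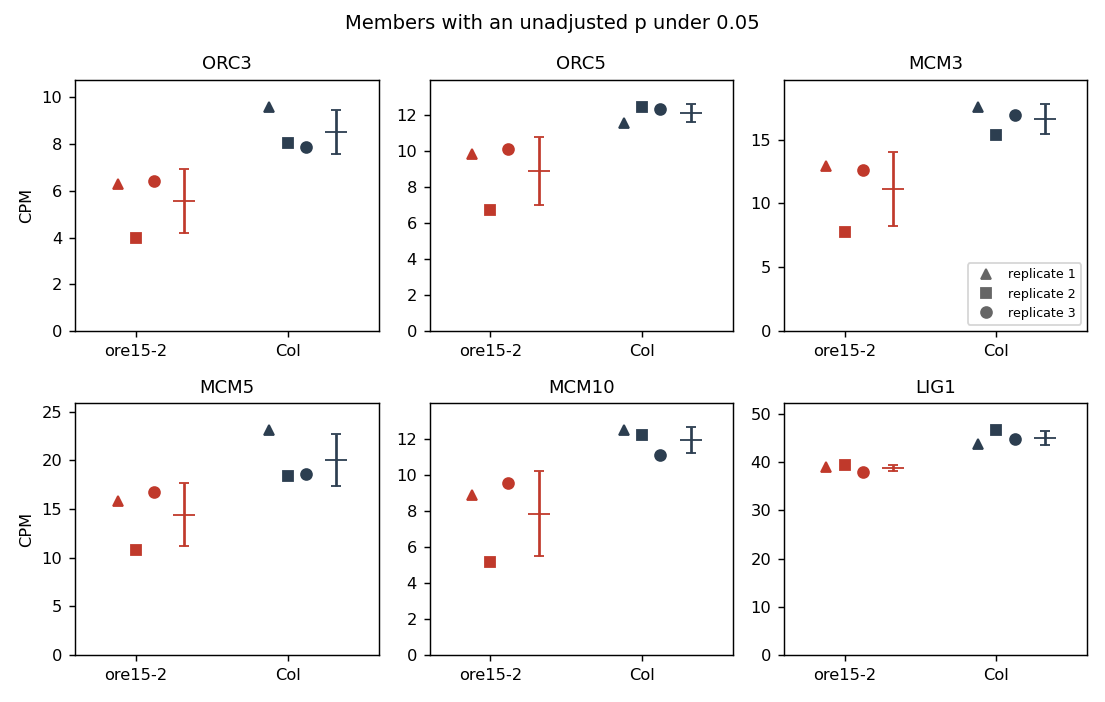
CPM of the 6 members with an unadjusted p under 0.05. In each panel the vertical axis is CPM from 0, red symbols on the left are the 3 ore15-2 libraries and dark symbols on the right the 3 Col libraries, and the bars beside them give the mean and SD of the 3. In all 6 panels the groups do not overlap, and in 5 of them, all but LIG1, ore15-2 replicate 2 is lowest.

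MCM7, the ring subunit that the reference lists under its mutant name PRL, had the highest level per length of the MCM genes, 13.7 ± 2.87 RPKM in ore15-2 and 18.2 ± 1.21 RPKM in Col (SD, n = 3 each). Its CPM values were 37.0, 28.2 and 28.1 in ore15-2 and 37.7, 35.4 and 33.8 in Col, a log2 change of -0.20 (adjusted p = 0.330). Replicate 1 of ore15-2 was inside the Col range, and replicates 2 and 3 were below it. The 6 ring subunits stood in the same order per length in both genotypes, from MCM6 at 3.98 RPKM in ore15-2 and 6.68 RPKM in Col, through MCM3, MCM5, MCM4 and MCM2, to MCM7. Neighbours in that order, such as MCM4 at 8.34 ± 1.33 RPKM and MCM2 at 8.56 ± 1.35 RPKM in ore15-2, lay within their spread. The RPKM values are not corrected for the composition of the libraries, so they are used for levels and not for changes.

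Summed over MCM2 to MCM7, the CPM values were 127, 98.8 and 118 in ore15-2 and 154, 132 and 135 in Col, with no overlap. MCM2 and MCM4 had log2 changes of -0.15 and -0.14. CDC45, which travels with the ring, had -0.04 with a wide 95% interval of -0.56 to 0.49. Its change was 0.20 without ore15-2 replicate 3 and -0.45 with replicate 3 alone.

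At the replication fork 6 of 8 fitted changes lay below 0, with a median of -0.14 on the log2 scale, and LIG1 alone of the 8 had an unadjusted p under 0.05. Leaving out ore15-2 replicate 3 also gave 6 below 0, and replicate 3 alone gave 7. LIG1 (AT1G08130, TAIR10.1 chromosome 1, 2542663 to 2547946, minus strand), the ligase that joins Okazaki fragments, had 38.9, 39.4 and 38.1 CPM in ore15-2 and 43.7, 46.6 and 44.8 CPM in Col. The log2 change was -0.22 (SE 0.09, 95% interval -0.42 to -0.02, adjusted p = 0.153 in edgeR's quasi-likelihood test). It was the member with the smallest standard error, its 3 ore15-2 libraries lay close together, and the groups did not overlap.

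PCNA1, one of a pair of sliding clamp genes, had the highest level per length at the fork over all 6 libraries, 73.1 ± 13.6 RPKM in ore15-2 and 72.7 ± 0.799 RPKM in Col (SD, n = 3 each). Its CPM values were 69.8, 74.95 and 42.9 in ore15-2 and 52.0, 52.1 and 53.0 in Col. Replicates 1 and 2 of ore15-2 were above every Col library and replicate 3 was below every one, while the Col libraries lay within about 1 CPM of each other. The log2 change was 0.24 (SE 0.18, adjusted p = 0.425). PCNA2, named after its values were seen, had 53.0, 74.8 and 43.1 CPM in ore15-2 and 51.9, 53.3 and 53.8 CPM in Col, a log2 change of 0.09 (adjusted p = 0.777). Replicate 1 of ore15-2 was inside the Col range of PCNA2, replicate 2 above it and replicate 3 below it. The PCNA1 and PCNA2 coding sequences are 85.6% identical, with an identical run of 41 bases, so some reads may not tell them apart.

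The polymerase genes all had fitted changes below 0 and none had an unadjusted p under 0.05. POLA1, the catalytic subunit of polymerase alpha, had 14.9, 17.5 and 17.7 CPM in ore15-2 and 22.2, 18.8 and 18.3 CPM in Col, a log2 change of -0.24 (adjusted p = 0.291) with no overlap. POLD1, of the lagging-strand polymerase delta, had a log2 change of -0.24, and POLA2, the second subunit of polymerase alpha, had -0.15. POL2A, of the leading-strand polymerase epsilon, had -0.13. RFC1, the large subunit of the clamp loader, had -0.13. Exons of POL2A overlap those of neighbouring genes by 1756 and 395 bases and those of POLA1 by 870 bases. The strand setting of the counting is not given, so how reads in these overlaps were counted is not known. Of the other members ORC1A has the longest overlap of this kind, 825 bases, then PCNA2 with 279 bases and RNR2A with 153 bases. ORC3, ORC5, MCM3, MCM5, MCM10 and LIG1 have none.

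The ribonucleotide reductase genes differed among themselves. TSO2, a small subunit of the enzyme, had the highest level per length of all members, 128 ± 20.5 RPKM in ore15-2 and 118 ± 2.01 RPKM in Col (SD, n = 3 each), and the highest fitted change. Its CPM values were 140, 179 and 99.0 in ore15-2 and 107, 109 and 105 in Col, a log2 change of 0.37 (SE 0.19, 95% interval -0.05 to 0.79, adjusted p = 0.231 in edgeR's quasi-likelihood test). As in PCNA1, ore15-2 replicates 1 and 2 were above all Col libraries and replicate 3 was below them. RNR1, the large subunit, had 55.1, 53.1 and 46.4 CPM in ore15-2 and 54.8, 55.2 and 47.2 CPM in Col, a log2 change of -0.03. RNR2A, the other small subunit, had a log2 change of -0.14. Both had overlapping groups. Of the 3 reductase genes 2 had a change below 0, against 1 without ore15-2 replicate 3 and 2 with replicate 3 alone.

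The 2 subunits of CAF-1, which deposits histones on new DNA, both had fitted changes below 0, as they did without ore15-2 replicate 3, while with replicate 3 alone 1 of 2 did. FAS1 had 14.4, 10.1 and 15.3 CPM in ore15-2 and 15.2, 14.9 and 13.5 CPM in Col, a log2 change of -0.11 (SE 0.16, adjusted p = 0.707 in edgeR's quasi-likelihood test). FAS2 had 7.27, 4.77 and 6.06 CPM in ore15-2 and 6.53, 6.58 and 7.64 CPM in Col, a log2 change of -0.19 (SE 0.18, adjusted p = 0.527). In both genes the groups overlapped and replicate 2 of ore15-2 was the lowest library. FAS1 and POLA1, the members with 2 E2F sites in the sequences printed above, had log2 changes of -0.11 and -0.24.

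The members' changes were also set out by the presence of an E2F site, as a description with no test. The 16 with a site had a median log2 change of -0.15, with 15 below 0, and the 26 without had a median of -0.13, with 19 below 0. Among all tested protein-coding genes the median was -0.06 in the 343 with a site, of which 7.29% were called, and 0.000283 in the 18055 without, of which 9.82% were called. ORC3, MCM3 and MCM5 have a site, and ORC5, MCM10 and LIG1 have none.

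The members' values depended on which ore15-2 libraries were read. Relative to the mean of Col, the median log2 deviation of the 42 genes was -0.03 in ore15-2 replicate 1, -0.20 in replicate 2 and -0.20 in replicate 3, against 0.01, -0.02 and -0.00154 over all tested genes. The number of members below the Col mean was 23 in replicate 1, 32 in replicate 2 and 37 in replicate 3. Replicate 3 is the ore15-2 library nearest to Col on the first principal component. In it 30 of 42 members (71.4%) were below every Col library, against 35.6% of all tested genes, and 3 were above every one, against 35.1% of all tested genes. Related lists also lay low in replicate 3. Of 48 other pathway genes 27 (56.2%) were below every Col library and 3 above every one. Of 9 markers of dividing and meristem cells 8 (88.9%) were below every Col library and 1 above. These deviations share the Col mean, and ore15-2 replicate 3 is 1 library, so the shares are given with no test.

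**Figure D4:**
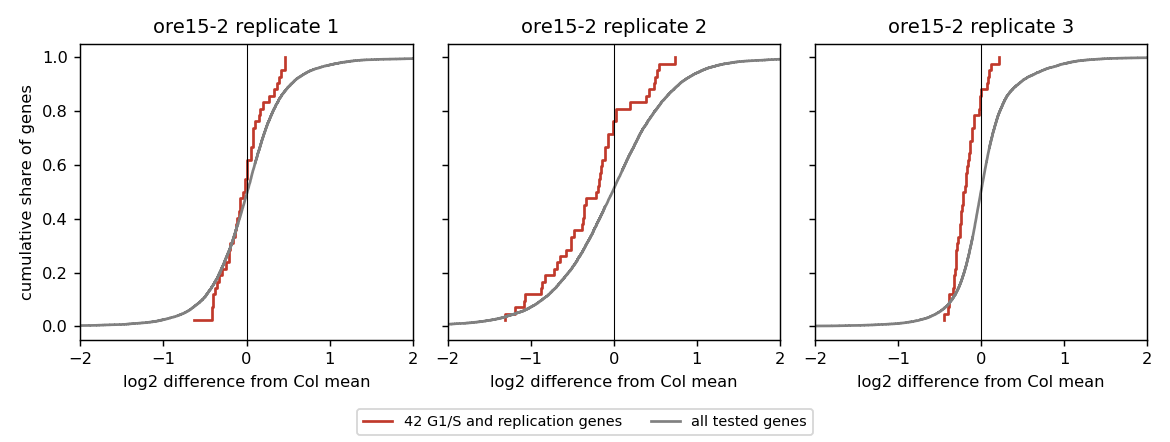
Cumulative distribution of the log2 difference from the Col mean in each ore15-2 library. The horizontal axis is the log2 difference and the vertical axis the share of genes at or below it; the red step line is the 42 members and the grey line all tested genes. The median of the members is -0.03, -0.20 and -0.20 in ore15-2 replicates 1, 2 and 3, and in replicate 3 nearly the whole red line, 37 of 42 genes, lies left of 0.

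Without ore15-2 replicate 3, edgeR's quasi-likelihood test called 11 members (26.2%), 4 higher and 7 lower, against 35.3% of all tested genes (18.7% higher and 16.6% lower). The 4 higher were PCNA1 with a log2 change of 0.43 (adjusted p = 0.00306), TSO2 with 0.54 (adjusted p = 0.00353), CYCD3;2 with 0.32 (adjusted p = 0.0211) and CYCD3;1 with 0.425 (adjusted p = 0.0289). The 7 lower were CYCD1;1 with -0.775 (adjusted p = 0.00198), ORC3, ORC5, MCM3, MCM5, MCM6 and MCM10, the last 6 with adjusted p from 0.0155 to 0.0330 and changes from -0.79 to -0.56. The 31 other members did not pass, among them CYCD3;3, ORC1A, ORC1B, ORC2, ORC4, MCM2, MCM4 and MCM7.

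With ore15-2 replicates 1 and 2 left out instead, the test had the single replicate 3, which is assumed to vary like the Col libraries. It then called 4 members (9.52%), all lower, against 16.6% of all tested genes (5.63% lower). They were PCNA2 with a log2 change of -0.29 (adjusted p = 0.0327), PCNA1 with -0.28 (adjusted p = 0.0385), CYCD3;2 with -0.30 (adjusted p = 0.0434) and MCM7 with -0.33 (adjusted p = 0.0456). PCNA1 and CYCD3;2 were therefore called in opposite directions by the different libraries of the mutant. LIG1, the ligase, had a log2 change of -0.23 in both fits (adjusted p = 0.0708 with ore15-2 replicates 1 and 2). ORC3, ORC5, MCM3, MCM5 and MCM10 were also below 0 in both. In all of these genes every ore15-2 library was below every Col library. A change below 0 in both fits follows from that and is no separate result.

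The pattern with ore15-2 replicates 1 and 2 above the Col range and replicate 3 below it was shown by 3 of 42 members (7.14%), CYCD3;2, PCNA1 and TSO2. It was shown by 7.12% of all tested genes, so the share among the members is that of the background. The opposite pattern was shown by 1 of 42 members, CYCD1;1, against 1074 of the 18726 tested genes.

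**Figure D5:**
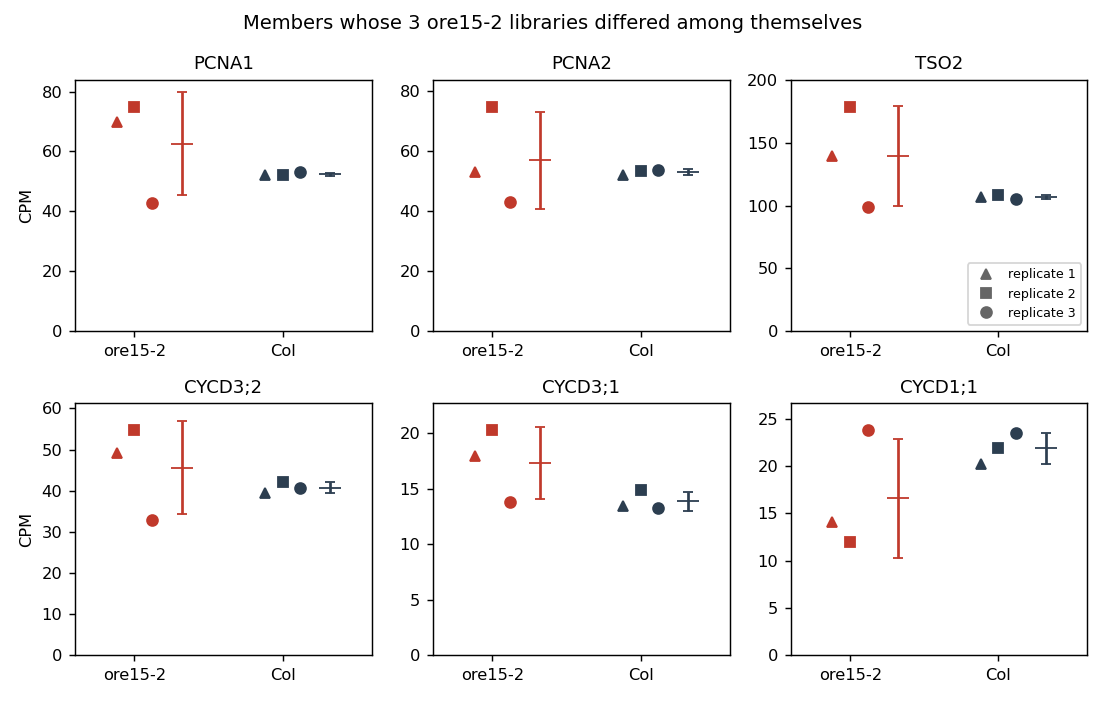
CPM of PCNA1, PCNA2, TSO2, CYCD3;2, CYCD3;1 and CYCD1;1, chosen after their values were seen. In each panel the vertical axis is CPM from 0, red symbols on the left are the ore15-2 libraries and dark symbols on the right the Col libraries, and the bars give the mean and SD of the 3. For PCNA1, TSO2 and CYCD3;2 the triangle and square of ore15-2 replicates 1 and 2 lie above all Col symbols and the circle of replicate 3 below them.

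Marker genes of the cell types in the tip also differed between libraries. The summed CPM of 9 markers of dividing and meristem cells was 240, 256 and 189 in ore15-2 and 212, 229 and 225 in Col, so that here too ore15-2 replicates 1 and 2 were above the Col range and replicate 3 below it. None of the 9 passed the test, and 8 of 9 were below the Col mean in replicate 3, against 2 in replicate 1 and 3 in replicate 2. Not all of the 9 followed the pattern of the sum. WOX5 (log2 change -0.60) was lower and PLT2 (0.31) higher in all 3 ore15-2 libraries, with no overlap. Such genes were 22.2% of the 9, against 34.5% of all tested genes. The summed CPM of 6 root hair markers was 417, 747 and 432 in ore15-2 and 246, 267 and 286 in Col, and 5 of the 6 rose. That of 4 phloem markers was 40.7, 36.2 and 55.8 in ore15-2 and 83.9, 103 and 95.8 in Col, and 3 of the 4 fell. That of 4 root cap markers was 48.1, 44.3 and 36.6 in ore15-2 and 34.0, 32.1 and 27.4 in Col, and 1, FEZ, which lies in the same raised block of chromosome 1 as ORC6, rose. That of 6 endodermis markers was 466, 674 and 529 in ore15-2 and 382, 440 and 487 in Col, and 1, CASP4, rose. That of 5 xylem markers was 209, 255 and 260 in ore15-2 and 252, 264 and 283 in Col, and 0 passed the test, nor did any have an unadjusted p under 0.05. The root hair, phloem and root cap sums of all 3 ore15-2 libraries lay outside the Col range on the same side. No marker of these lists was at 0 in any library. The part of tissue makeup in the members' values was not tested.

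Deviations of all genes in ore15-2 replicates 1 and 2 also varied with gene length and with expression level. In the shortest quintile of genes the median log2 deviation was 0.13, 0.27 and 0.05 in ore15-2 replicates 1 to 3, and in the longest quintile it was -0.03, -0.17 and -0.01. In the quintile with the highest level it was 0.14, 0.30 and 0.01, and in the next to lowest quintile -0.08, -0.20 and -0.01. Of the 41 members with a length, 17 are in the longest quintile and 0 in the shortest, and TSO2 is the 1 member in the quintile with the highest level. In the longest quintile the members' own medians were -0.08, -0.21 and -0.21, against the -0.03, -0.17 and -0.01 of all its genes. The part of length and level in the members' values was not tested.

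The other genes of the pathway, a list of 50 that includes further cyclins, GINS, replication protein A, further polymerase and clamp loader subunits and nucleotide synthesis enzymes, had 48 members in the table, all tested. In edgeR's quasi-likelihood test 1 rose and 0 fell and 47 did not pass, against 9.9% of all tested genes called. The median log2 change was -0.06, with 32 of 48 below 0 (66.7%), against 50.1% of all tested genes. The gene that rose was ORC6, the smallest ORC subunit (AT1G26840, TAIR10.1 chromosome 1, 9298670 to 9300800, plus strand), with 30.0, 27.0 and 29.1 CPM in ore15-2 and 17.0, 15.3 and 13.8 CPM in Col. Its log2 change was 0.91 (SE 0.12, adjusted p = 0.00199), with no overlap. ORC6 lies in a block of chromosome 1 from 8692630 to 11059037 in which 318 of 401 tested genes were higher in ore15-2 (79.3%) and 1 was lower. The bounds of the block come from an earlier look at these data. None of the 42 members lies in that block.

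The next genes of the pathway by p did not pass. THY-1, which makes thymidylate, had 24.4, 22.3 and 28.0 CPM in ore15-2 and 33.4, 33.8 and 32.3 CPM in Col, a log2 change of -0.40 (SE 0.11, adjusted p = 0.0532 in edgeR's quasi-likelihood test). MCM9, a relative of the ring subunits that acts in repair, had 1.62, 2.58 and 2.97 CPM in ore15-2 and 5.13, 4.27 and 3.68 CPM in Col, a log2 change of -0.78 (SE 0.25, adjusted p = 0.0804). Its values rest on 10, 13 and 52 reads in ore15-2 and 99, 94 and 77 in Col. PSF1, a GINS subunit that joins CDC45 at the helicase, had 13.7, 9.94 and 11.6 CPM in ore15-2 and 16.1, 16.7 and 14.8 CPM in Col, a log2 change of -0.43 (SE 0.15, adjusted p = 0.104). In all 3 the ore15-2 libraries were below the Col libraries with no overlap. This held for 10 of the 48 pathway genes and for 16.3% of all tested genes.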

How the data were processed

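Messenger RNA of 3 ore15-2 and 3 Col libraries was sequenced after poly(A) selection with a stranded kit, per the labels' protocols. The authors deposited read counts per gene and RPKM values; per the submitters' processing notes they used the TAIR10 genome and FastQC, cutadapt, TopHat2 and HTSeq. Annotation release and strand setting: not given in the sources used here. The deposited RPKM values restate the counts: all 18340 shared genes implied a single length within a relative tolerance of 0.0001. E2FB has no RPKM value.

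The counts entered edgeR 4.0.16 under R 4.3.3 (TMM scaling, filterByExpr, quasi-likelihood F-test, genotype as the only term), with Benjamini-Hochberg adjustment over 18726 genes and a threshold of 0.05. The standard error is the absolute log2 change divided by the square root of F, and 95% intervals use the t distribution. CPM uses TMM-scaled library sizes. A library's deviation is its log2 CPM (prior count 2) less the Col mean. A floor of 3 counts equals 0.136 to 0.596 CPM per library and covers counting error only. No libraries were duplicates within sampling noise. The code was tested on simulated counts.

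Promoter windows, positions and coding sequences came from the RefSeq annotation of TAIR10.1, read with Biopython 1.88. Coding sequences replace a planned comparison of proteins. Quintiles of length and level used the RPKM table. Promoter sequences were planned for 3 members; the third is not reported here. Only promoter letters were searched, so no site is shown to be bound.

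The genes, lists and tests were chosen with earlier results of these data known. Values per library are given for members past an adjusted p of 0.05, those with an unadjusted p under 0.05, and in each role the member with the highest mean RPKM and the one with the smallest p, and for the pathway genes past the threshold or with the 4 smallest p. Library values of CYCD1;1, CYCD3;1, RBR1, CDC6, MCM6, PCNA2, POLA1 and RNR1 were added after they were seen; the remaining members are given by fitted change. The reference lists E2FA, E2FB, E2FC, MCM7, POLA1 and POL2A as E2F3, E2F1, ATE2F2, PRL, ICU2 and TIL1, and gives POLD1 no symbol. The 20 alternatives included scaling by RLE or upper quartiles, DESeq2 1.42.0, voom in limma 3.58.1, other filters, log2(RPKM + 1) in limma, a replicate block, and leaving out libraries or the chromosome 1 block. Cyclic loess scaling was added after seeing the data.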

Additional observations from a re-analysis of the deposited data

How the results depend on the processing

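Of 20 alternatives, 19 were planned. Changed members numbered 0 in the reported test, 1 in DESeq2 (MCM3), 0 to 11 with each library left out (11 without ore15-2 replicate 3, 0 in every other case) and 4 when only ore15-2 replicate 3 was kept. Members with an unadjusted p under 0.05 numbered 6 in the reported test, where 26.9% of all tested genes were under it. They numbered 10 in each of 3 RPKM fits, against 29% to 29.8% of all genes. With a library left out they numbered 3 to 15, against 17.1% to 46.3% of all genes. Both the 15 and the 46.3% are from the fit without ore15-2 replicate 3. The median log2 change of the members, -0.14, ran from -0.20 to -0.11 with a library left out and was -0.34 on log2(RPKM + 1), -0.37 on log2(RPKM + 0.1) and -0.34 on log2(RPKM + 1) with no filter on RPKM. On those scales, which have no composition scaling, the median of all genes was -0.21, -0.23 and -0.21. All changed genes, 1854, ran from 634 to 6612 with a library left out, and numbered 3109 with ore15-2 replicate 3 alone and 1110, 1037 and 1133 in the RPKM fits. Changed pathway genes, 1, numbered 2 with RLE scaling, upper-quartile scaling and DESeq2 (THY-1 is the second). They numbered 0 in the RPKM fits and 0 with the chromosome 1 block left out, where ORC6 is not tested. With a library left out they numbered 1 to 7. The 7 were called without ore15-2 replicate 3, where 35.3% of all tested genes were called. The sign of the fitted change was the same in every fit made for 23 of 42 members and turned in at least 1 for 19; E2FB had 18 and ORC1A 19 of 21 fits, the rest all 21. The deviations of same-numbered libraries from their genotype means correlated at 0.06, 0.08 and -0.20. These values cannot decide whether the numbers pair the libraries, because the ore15-2 libraries differ widely among themselves. With a replicate block 0 members and 1641 genes changed. Cyclic loess scaling, added after seeing the data, gave 0 members and 1911 genes.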
